A study of Mus musculus with 4 samples.

Results

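The genes described here encode subunits of the IL-6 and IL-12 cytokine families: Il6, Il12a, Il12b, Il23a, Il27, Ebi3, Osm and Lif. They were chosen by name, as the rows of the expression table that carry these symbols, with earlier results of these data known. Of these 8 genes, 7 had a row among the 11111 genes of the table, and the expression of Lif was not analysed here. Expression was measured by RNA sequencing of poly(A) RNA from bone marrow-derived macrophages of wild-type C57BL/6 mice, which were kept in culture for 7 days (medium renewed on day 4). Macrophages of the control group (Ctrl MO) received a control morpholino, and those of the other group (Reg1-MOs) received morpholinos directed at Regnase-1. Both groups were given 2 µM morpholino with the delivery peptide Endoporter at 6 µl/ml, 24 hours before 10 ng/ml of the bacterial endotoxin LPS was added for 4 hours. Every library therefore comes from LPS-stimulated cells, and each group holds 2 libraries.

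Cytokines of the IL-6 family act through receptor complexes that contain the shared signalling chain gp130, and those of the IL-12 family are dimers in which chains are exchanged between members. The product of Il12b (p40) pairs with that of Il12a (p35) to give IL-12 and with that of Il23a (p19) to give IL-23, while the product of Il27 (p28) pairs with that of Ebi3 to give IL-27. Macrophages make these cytokines after Toll-like receptor stimulation, and the stability of the transcripts is part of their control. Regnase-1, encoded by Zc3h12a, is an endoribonuclease that cleaves inflammatory transcripts, Il6 and Il12b among them as described in earlier work, and also its own transcript. Morpholinos are antisense oligomers that bind RNA without leading to its cleavage by RNase H. The comparison asks which of the cytokine transcripts differ when such oligomers are directed at Regnase-1.

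Over the genes of the table the libraries held 23369753 to 25213695 reads, and the median gene had 404 to 437. Differences between replicates exceeded counting noise, more so for Reg1-MOs than for Ctrl MO (chi-square per degree of freedom 15.2 and 4.25). Zc3h12a itself had 3407 and 3572 reads in the control libraries and 7799 and 6753 in the Reg1-MOs libraries. Its log2 fold change was 1.10 (SE 0.07, n = 2 per group, limma adjusted p = 4.01e-04), which is a level of transcript and not of protein. The table heads the Reg1-MOs libraries MO1 and MO2, which are also the labels' names for the 2 targeting oligomers, so whether each library received 1 of them or both is not known. Whether the replicates are separate mice or cultures is not stated in the labels. The p-values set the group difference against the spread between replicates, which the test shares across genes. That spread may be technical and may hold no variation between mice.

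Transcripts of both chains of IL-27, of Il6 and of Il12a fell with Reg1-MOs, and the transcript of Il23a rose. Of the 7 genes, 1 was called higher and 4 lower at an adjusted p of at most 0.05, and Il12b and Osm did not pass. As background, 12.2% of all genes were called, 6.22% higher and 6.03% lower. The median log2 fold change (Reg1-MOs over Ctrl MO) was -0.47 for the 7 genes and -0.03 for all 11111. The 5 called changes ranged from 2.49-fold higher to 1.86-fold lower. Adjusted p-values are Benjamini-Hochberg values over all genes of the table, from limma's moderated test.

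**Figure D1:**
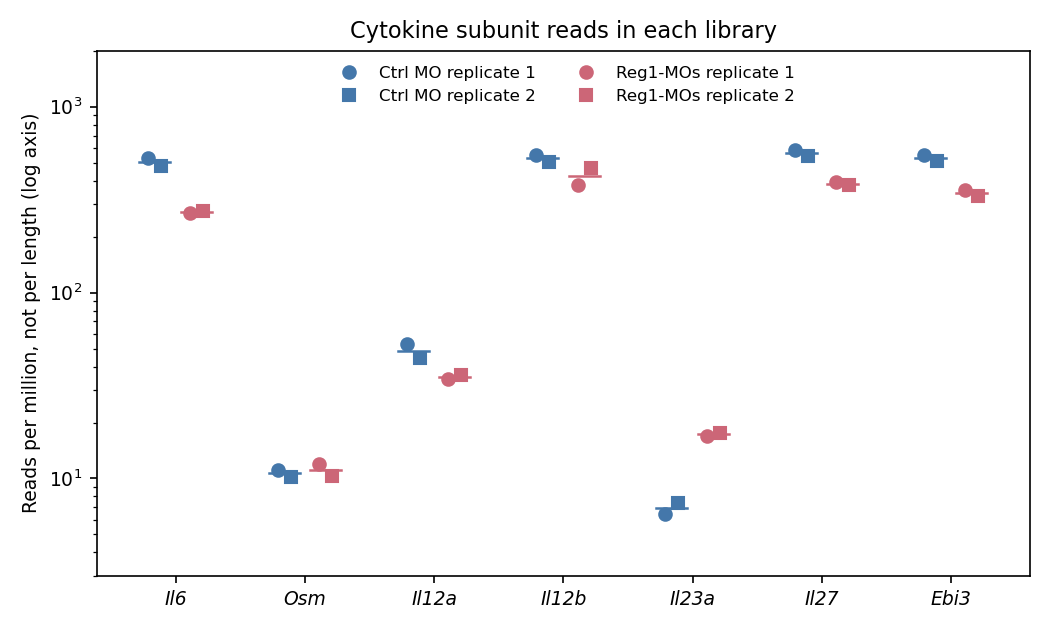
RPM of the 7 cytokine genes in each library (reads per gene scaled to the implied library size, log axis, not divided by length). Blue is Ctrl MO, red is Reg1-MOs, circles are replicate 1 and squares are replicate 2. A bar marks the mean log2 level of each group. Il23a lay at 6.45 and 7.40 with Ctrl MO and at 16.9 and 17.6 with Reg1-MOs, and the groups of Osm overlapped. How many of all genes have groups that do not overlap was not counted.

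Among the ligands of the IL-6 family, Il6 encodes the pyrogenic cytokine that drives the acute phase response of the liver, and lies at chr5:30013114-30019981 (plus strand; positions are of the GRCm38 build). It was counted at 10161 and 9133 reads with Ctrl MO and at 5197 and 4906 reads with Reg1-MOs, which is 533 and 479 against 268 and 276 RPM (reads scaled to the library size that the deposited scale implies). Both control libraries lay above both Reg1-MOs libraries. The log2 fold change was -0.89 (SE 0.07, 95% interval -1.06 to -0.72, n = 2 per group, limma adjusted p = 0.00103), or 1.86-fold lower. The lowest control and the highest Reg1-MOs library were 0.80 apart on the log2 scale, whereas replicates differed by 0.15 and 0.04. By size the decrease was the 155th among the 670 called.

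Osm encodes oncostatin M, a gp130 cytokine that acts on stromal cells, hepatocytes and haematopoietic precursors. The gene lies at chr11:4236420-4241026 (plus strand). Its counts were 212 and 195 reads with Ctrl MO and 232 and 183 reads with Reg1-MOs, so the groups overlapped. The log2 fold change of 0.06 (SE 0.13, 95% interval -0.23 to 0.35, limma adjusted p = 0.796) did not pass, and its sign turned when Ctrl MO replicate 2 (-0.00) or Reg1-MOs replicate 1 (-0.05) was left out. The interval does not reach a change of the size seen in Il6 or in Il23a in either direction. Lif, the gene of leukaemia inhibitory factor, lies next to Osm on chromosome 11 with 16531 bp between them.

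The shared chain of IL-12 and IL-23 is the product of Il12b, which is also secreted without a partner (chr11:44400063-44414033, plus strand). Il12b was counted at 10464 and 9632 reads with Ctrl MO and at 7378 and 8285 reads with Reg1-MOs, or 549 and 505 against 381 and 466 RPM. Both control libraries were above both Reg1-MOs libraries, by 0.12 on the log2 scale, but the Reg1-MOs replicates were 0.29 apart. The log2 fold change of -0.32 (SE 0.10, 95% interval -0.56 to -0.08, n = 2 per group) did not pass after adjustment over all genes (limma adjusted p = 0.0807). Without Reg1-MOs replicate 2 it was -0.47 and passed (adjusted p = 0.0364), and without Reg1-MOs replicate 1 it was -0.18 (adjusted p = 0.211).

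Il12a encodes the chain found in IL-12 and, with the product of Ebi3, in IL-35, and lies at chr3:68690644-68698547 (plus strand). It was counted at 1006 and 850 reads with Ctrl MO and at 663 and 638 reads with Reg1-MOs. The groups did not overlap, with 52.7 and 44.6 against 34.2 and 35.9 RPM. The log2 fold change was -0.47 (SE 0.10, 95% interval -0.70 to -0.23, n = 2 per group, limma adjusted p = 0.0261), or 1.38-fold lower. When each library was dropped in turn, the log2 fold change of Il12a stayed negative, between -0.59 and -0.35. The call did not hold in each of these fits. Because they leave 1 library in a group, they cannot show whether the call depends on any given library. With all 4 libraries, the call ended in limma without a variance trend (adjusted p = 0.112).

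Il23a encodes the chain that turns p40 into IL-23, the cytokine that sustains IL-17-producing T cells. The gene spans chr10:128296139-128298752 (minus strand). Its counts were 123 and 141 reads with Ctrl MO and 327 and 312 reads with Reg1-MOs. Both Reg1-MOs libraries stood above both control libraries by 1.19 on the log2 scale, and replicates differed by 0.20 and 0.06. The log2 fold change was 1.31 (SE 0.12, 95% interval 1.03 to 1.59, n = 2 per group, limma adjusted p = 0.00139), or 2.49-fold higher. It was the one member that rose, the 40th by size among the 691 called increases.

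Il27 encodes the p28 chain of IL-27, a cytokine that restrains as well as promotes T-cell responses, and lies at chr7:126589010-126594941 (minus strand). It was counted at 11089 and 10376 reads with Ctrl MO and at 7625 and 6725 reads with Reg1-MOs, so that the log2 fold change was -0.54 (SE 0.07, 95% interval -0.70 to -0.39, n = 2 per group, limma adjusted p = 0.00312) or 1.46-fold lower. Ebi3, the gene of its partner chain at chr17:55952640-55957022 (plus strand), was counted at 10434 and 9720 reads with Ctrl MO and at 6889 and 5882 with Reg1-MOs. In both genes each control library was above each Reg1-MOs library, by 0.47 and 0.52 on the log2 scale. The log2 fold change of Ebi3 was -0.62 (SE 0.07, 95% interval -0.79 to -0.46, n = 2 per group, limma adjusted p = 0.00257), or 1.54-fold lower. Without a variance trend neither gene passed (adjusted p = 0.0580 for Il27 and 0.0527 for Ebi3). Exons of Il27 overlap those of the oppositely transcribed Apobr, and exons of Ebi3 overlap those of the antisense gene Gm16712. Because the strand setting of the counting is not given, reads of such pairs cannot be told apart. Apobr had 4839 and 4768 reads in the control libraries and 5450 and 4827 in the Reg1-MOs libraries (log2 fold change 0.13, limma adjusted p = 0.206).

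**Figure D2:**
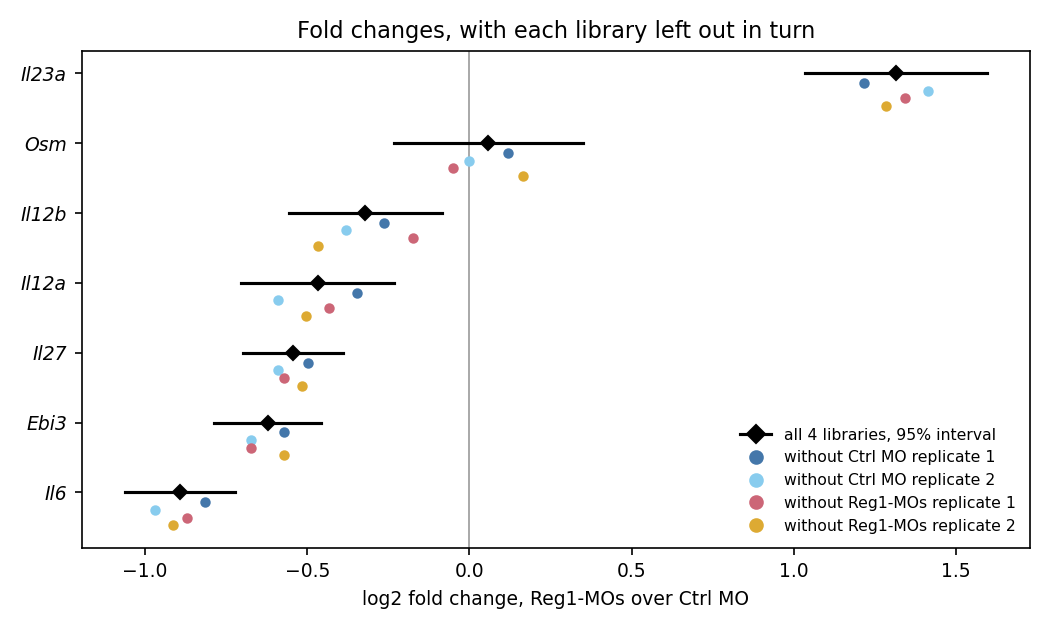
Log2 fold change (Reg1-MOs over Ctrl MO) of the 7 cytokine genes, with black diamonds and bars for the value and 95% interval of limma's moderated test over all 4 libraries and coloured points for the value with 1 library left out. Il23a stays between 1.22 and 1.41 and Il6 between -0.97 and -0.82, while the points of Osm lie on both sides of 0.

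Levels of different genes were set side by side per length, as RPKM over the union of annotated exons. With Ctrl MO the order was Il27 (569 and 533), Ebi3 (474 and 442), Il12b (279 and 257), Il6 (219 and 197), Il12a (31.0 and 26.2), Osm (4.89 and 4.50) and Il23a (2.87 and 3.29). The ranges of neighbours in this order did not overlap. With Reg1-MOs the levels per length of the leading genes were lower, at 385 and 371 for Il27, 308 and 287 for Ebi3, 194 and 237 for Il12b, 110 and 114 for Il6 and 20.1 and 21.1 for Il12a. Il23a, at 7.51 and 7.81, then stood above Osm, at 5.27 and 4.53, which was the one exchange of ranks. The order was the same when the longest annotated transcript was used as the length.

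The ratio between the chains of a dimer moved most for IL-23. The log2 ratio of Il23a to Il12b reads was -6.40 and -6.09 with Ctrl MO against -4.49 and -4.73 with Reg1-MOs, a shift of 1.64 or 3.11-fold towards Il23a. Per length of the union of exons, Il12b transcripts exceeded those of Il23a by 96.8-fold and 77.8-fold with Ctrl MO. With Reg1-MOs they did so by 25.7-fold and 30.3-fold. These folds depend on the length used. Over the longest transcript Il23a was at 3.74 and 4.29 RPKM with Ctrl MO and at 9.79 and 10.2 with Reg1-MOs. Il12b was then at 282 and 260 with Ctrl MO and at 196 and 240 with Reg1-MOs. The p40 transcript stayed the more abundant in all 4 libraries. For the chains of IL-12, the log2 ratio of Il12a to Il12b was -3.38 and -3.50 with Ctrl MO against -3.48 and -3.70 with Reg1-MOs, and the groups overlapped. For IL-27, the log2 ratio of Il27 to Ebi3 was 0.09 in both control libraries and 0.15 and 0.19 with Reg1-MOs, a difference of 0.08. These ratios are given as values without a test, because the smallest p that an exact two-sided permutation test of 2 libraries against 2 can give is 1 in 3.

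**Figure D3:**
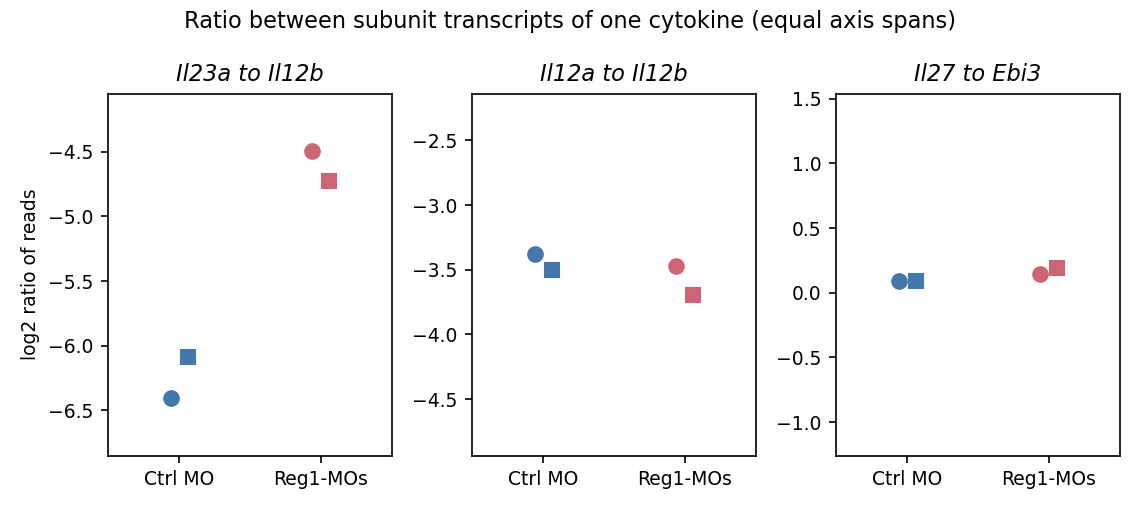
Log2 ratio of reads (vertical axis, the same span in each panel) between the chains of IL-23, IL-12 and IL-27 in each library, with circles for replicate 1 and squares for replicate 2. The Il23a to Il12b ratio is between -6.40 and -6.09 with Ctrl MO and between -4.73 and -4.49 with Reg1-MOs, and the means of the other ratios move by -0.15 and 0.08.

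Short AU-rich elements in the 3′ UTR are bound by decay factors such as tristetraprolin, and the members were searched for them. The sequences below are the surroundings of 1 such element in each member that holds the heptamer, read from the annotated transcript on GRCm38 with T for U and the heptamer in capitals. They are shown so that the transcript that rose can be compared with those that fell.
Il6, chr5:30019731-30019753, plus strand: atgattgaTATTTATtattttta
Osm, chr11:4240588-4240610, plus strand: agacacttTATTTATccgaatgt
Il12b, chr11:44413481-44413503, plus strand: aatttatgTATTTATtaatttat
Il12a, chr3:68698388-68698410, plus strand: tttaaaaaTATTTATtgctatat
Il23a, chr10:128296250-128296272, minus strand: aagctgcaTATTTATtaagtggg
Il27, chr7:126589100-126589122, minus strand: ttaccagaTATTTATttcttgga

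The pentamer ATTTA was present in the 3′ UTR of all 7 genes and in 68.1% of the 10807 genes of the table with an annotated 3′ UTR, the heptamer TATTTAT (which contains the pentamer) in 6 of 7 and in 28.7%. Il23a, which rose, held 6 pentamers and 5 heptamers in 657 bases, and Il12a, which fell, held 6 and 5 in 493 bases. Il6 carried 6 pentamers and 1 heptamer in 427 bases, and Il27 carried 5 and 4 in 285 bases. Osm, with 6 and 3 in 1017 bases, and Il12b, with 6 and 1 in 797 bases, did not pass the test of expression. Ebi3 fell with 1 pentamer and no heptamer in 245 bases. Transcripts with 6 pentamers included ones that rose, fell and did not pass. The part of these elements in the changes was not tested. Among 3′ UTRs within 20% of the same length, as many pentamers occurred in 0.415% of 965 genes for Il6, 0.122% of 818 for Il27, 0.569% of 1055 for Il12a, 1.05% of 1240 for Il23a, 1.87% of 1336 for Il12b, 3.71% of 1454 for Osm and 34.2% of 740 for Ebi3. A search for hairpins of at least 5 Watson-Crick pairs around a 3-base loop of pyrimidine, purine and pyrimidine, the shape that Regnase-1 is known to act on, matched 0 of the 7 3′ UTRs and 23.0% of genes, whose median 3′ UTR of 1034 bases is longer than those of the members. Among 3′ UTRs of like length such hairpins were in 5.01% (for Il27) to 19.1% (for Osm), and the heptamer in 7.70% (for Il27) to 23.9% (for Osm). This states only that no stretch of that strict form is in these annotated ends, since pairs of G with U and bulges were not allowed.

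**Figure D4:**
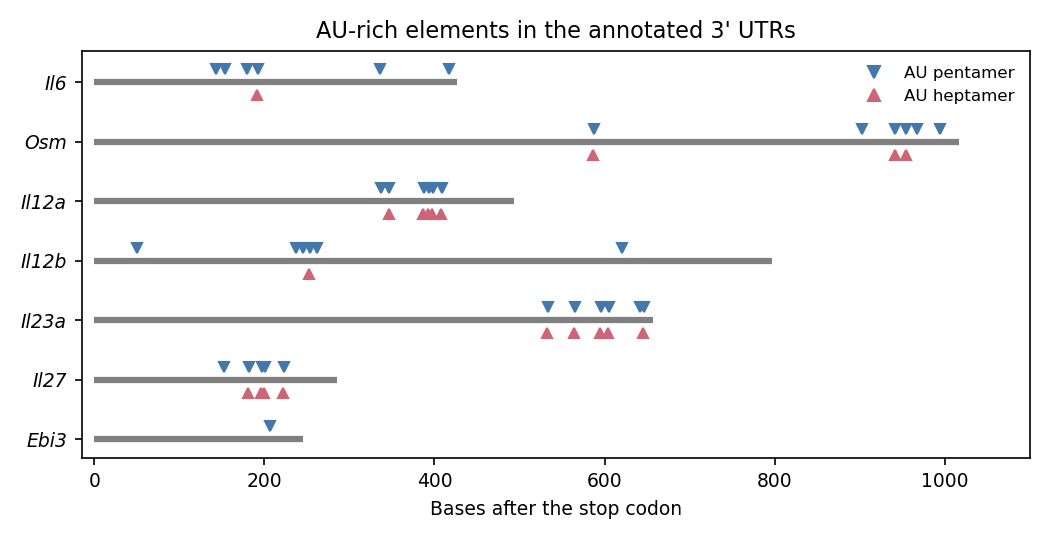
Positions of the AU pentamer (ATTTA, triangles above the line) and heptamer (TATTTAT, triangles below it) along the annotated 3′ UTR of each cytokine gene, in bases after the stop codon, with each UTR drawn to scale as a grey line. Il23a holds 5 heptamers and Ebi3 none, and the longest UTR is that of Osm at 1017 bases.

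Promoter windows from RefSeq (GRCm38.p6) of 250 bases before to 50 bases after the start were matched by symbol for 5 of the 8 genes, and not for Il23a, Il27 and Osm. The windows of Il6 and Ebi3, both of which fell, are shown because they hold matches to the NF-kappaB decamer. Capitals mark matches to any of the motifs searched on both strands: that decamer, the AP-1 motif TGANTCA, the C/EBP motif TTNNGNAA, the cyclic AMP response core TGACGT and an interferon response motif.
Il6, chr5:30012864-30013163, plus strand: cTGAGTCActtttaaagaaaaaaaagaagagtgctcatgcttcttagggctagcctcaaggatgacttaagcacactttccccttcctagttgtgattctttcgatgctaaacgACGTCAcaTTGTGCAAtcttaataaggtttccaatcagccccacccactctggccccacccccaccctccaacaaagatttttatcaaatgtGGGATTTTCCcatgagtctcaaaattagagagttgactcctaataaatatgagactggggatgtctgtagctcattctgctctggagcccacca
Ebi3, chr17:55952373-55952672, plus strand: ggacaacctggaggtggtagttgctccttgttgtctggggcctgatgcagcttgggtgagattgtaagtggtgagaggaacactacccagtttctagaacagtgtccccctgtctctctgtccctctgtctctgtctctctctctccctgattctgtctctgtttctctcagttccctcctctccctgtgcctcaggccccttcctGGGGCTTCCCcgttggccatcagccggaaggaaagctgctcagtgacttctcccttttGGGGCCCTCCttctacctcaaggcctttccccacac

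In the Il6 window the decamer began 44 bases before the start, with a C/EBP match at -128, the cyclic AMP response core on the other strand at -136 and an AP-1 match at -249. The Ebi3 window held a decamer at -44 and another at 15. The window of Il12b and both windows of Il12a held none of the motifs searched, and that of Lif held an AP-1 match at -228. Of 32851 windows of 300 bases, 5.81% held the decamer, 7.81% the AP-1 motif, 40.7% the C/EBP motif, 7.51% the cyclic AMP response core and 3.44% the interferon response motif. A match is a description of the letters and not a bound site.

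The change in the cytokine transcripts was set beside the lists of genes on either side of them. For each list below, the share called over all genes was 6.22% higher and 6.03% lower. Both shares are at an adjusted p of at most 0.05. The share at an unadjusted p under 0.05 was not counted, so the unadjusted counts below have no background. With voom weights 705 of all genes were called higher and 699 lower. Of 12 receptor chains, 7 had a row, and 1 of these was called lower and 0 higher. limma at an unadjusted p under 0.05 and the same test with voom weights on the recovered reads gave the same counts, 1 lower and 0 higher. The called gene was Il6ra, the ligand-binding chain for IL-6, which had 184 and 200 reads in the control libraries and 104 and 128 in the Reg1-MOs libraries (log2 fold change -0.69, SE 0.16, limma adjusted p = 0.0360). Its call ended without Ctrl MO replicate 2 (-0.63, adjusted p = 0.0721), without Reg1-MOs replicate 1 (-0.48, adjusted p = 0.115) and without a variance trend (adjusted p = 0.112), which left 0 receptor genes called lower. Il6st, which encodes gp130, was at -0.06, and Lifr, the receptor chain shared by LIF and oncostatin M, at -0.20 (adjusted p = 0.468). The median of the receptor list was -0.06. Of 7 related ligands 2 had a row, Clcf1 (0.17, adjusted p = 0.381) and Il10 (0.23, adjusted p = 0.253), and neither passed, with 0 at an unadjusted p under 0.05 and 0 with voom weights.

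Of the 20 JAK, STAT and feedback genes through which these receptors signal, 1 rose and 3 fell, with a median of -0.11. Socs2, a feedback inhibitor of cytokine receptors, had 101 and 86 reads in the control libraries and 223 and 180 in the Reg1-MOs libraries (log2 fold change 1.14, SE 0.14, limma adjusted p = 0.00358), a call that ended without Reg1-MOs replicate 1 (1.05, adjusted p = 0.0554). Jak1, the kinase bound to gp130, was counted at 19395 and 20652 against 14349 and 14329 reads (log2 fold change -0.44, SE 0.07, limma adjusted p = 0.00894), a call that ended without Ctrl MO replicate 2 (-0.40, adjusted p = 0.0740), without Reg1-MOs replicate 1 (-0.38, adjusted p = 0.0582) and without a variance trend (adjusted p = 0.0856). Jak2 (-0.33) and Socs3 (-0.38), the feedback inhibitor of gp130, also fell. Fewer genes of the list and of all genes fell without Ctrl MO replicate 1, Ctrl MO replicate 2 or Reg1-MOs replicate 1. Without a variance trend 1 gene of the list rose and 0 fell, against 195 and 182 of all genes. With the trend, limma at an unadjusted p under 0.05 gave 1 higher and 5 lower, and voom weights gave 1 and 3. Stat3, the main transducer of IL-6, was at -0.07.

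Among transcription factors and NF-kappaB regulators that act on cytokine genes, 31 of 33 had a row, 5 rose and 4 fell, and the median was -0.04. Nfkbid, a nuclear IkappaB protein, rose from 622 and 599 reads to 1110 and 993 (log2 fold change 0.82, limma adjusted p = 0.00158), and Nfkbiz, a related protein required for Il6 induction in macrophages, fell (-0.54, adjusted p = 0.00387), a call that ended without a variance trend (adjusted p = 0.0605). The other rises were Irf5 (0.47), Cebpa (0.56), Fos (0.41) and Ddit3 (0.47), and the other falls were Irf8 (-0.31), Xbp1 (-0.29) and Maf (-0.29). Fewer genes of the list and of all genes passed without Ctrl MO replicate 1, Ctrl MO replicate 2 or Reg1-MOs replicate 1. Without a variance trend 2 genes of the list rose and 0 fell, against 195 and 182 of all genes. With the trend, limma at an unadjusted p under 0.05 gave 7 higher and 10 lower, and voom weights gave 5 and 5.

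Of 17 mRNA decay factors and their antagonists, 16 had a row, of which 4 rose and 0 fell, with a median of -0.03. At an unadjusted p under 0.05 limma gave 6 higher and 1 lower, and with voom weights 4 and 0. Besides Zc3h12a, the largest of these rises, the AU-rich element binding protein gene Zfp36l2 went from 932 and 957 reads to 1572 and 1822 (log2 fold change 0.88, limma adjusted p = 0.00379), with Zc3h12d (0.47) and Zfp36l1 (0.44) also higher. Zfp36, which encodes tristetraprolin, was at 0.22 (adjusted p = 0.0730), and Arid5a, whose product stabilises Il6 transcripts, at -0.21 (adjusted p = 0.0773). Without Ctrl MO replicate 1 fewer genes of the list and of all genes rose. Without Reg1-MOs replicate 2 more genes of the list and of all genes fell. In limma without a variance trend 1 gene of the list and 195 of all genes rose, and Zfp36l2 missed the threshold (adjusted p = 0.0595).

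**Figure D5:**
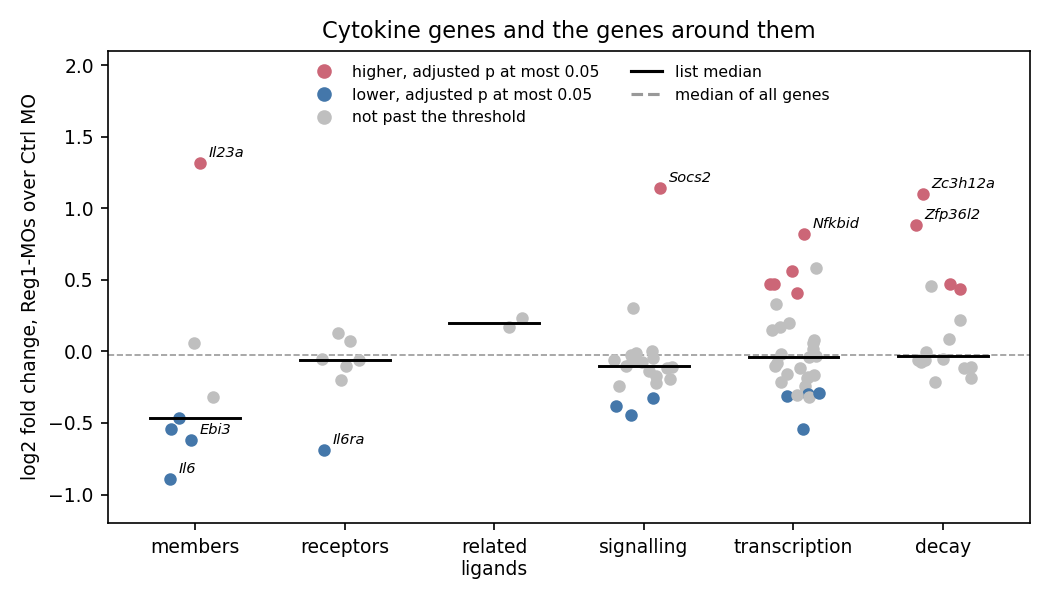
Log2 fold change (Reg1-MOs over Ctrl MO) of every gene with a row among the cytokine genes (members) and in the lists of receptors, related ligands, signalling genes, transcription factors and decay factors. Red and blue points are higher and lower at a limma adjusted p of at most 0.05, grey points did not pass, black bars are list medians and the dashed line is the median of all genes; the 5 lists have medians between -0.11 and 0.20, and the cytokine genes -0.47.

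The labelled cell type was checked on marker genes. All 10 macrophage markers had a row, of which 1 rose and 2 fell, and their summed level was 22772.1 to 22880.5 RPM with Ctrl MO and 20773.1 to 20917.9 with Reg1-MOs. Of 12 stromal cell and fibroblast markers 9 had a row, and all 9 fell, from a sum of 301 and 317 RPM with Ctrl MO to 116 and 136 with Reg1-MOs. Il6 fell in the same libraries, and stromal cells also express it; the part of such cells in its decrease was not tested. In bulk RNA, fewer cells of a type and less RNA per cell cannot be told apart. Of 12 dendritic cell markers 5 had a row and 1, Itgax, fell (-1.55), with sums of 2918 and 2942 RPM with Ctrl MO against 2479 and 2751 with Reg1-MOs, whereas the defining markers Flt3, Zbtb46, Xcr1 and Clec9a had none. Dendritic cells also make the p40 and p35 chains, and their part in the values of Il12b and Il12a was not tested. Of 10 neutrophil markers 9 had a row, with sums of 333 to 468 RPM over the 4 libraries.

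The genes whose 4 values, centred on their own mean, lay nearest to those of Il6 among 9340 genes were Marco (distance 0.0751), Gja1 (0.0792) and Sema4a (0.0956). Marco, a scavenger receptor, went from 1363 and 1214 reads to 718 and 630. Those nearest to Il23a were Gpr162 (0.139), Mtss1 (0.144) and Plxna2 (0.173), and Gpr162 went from 99 and 105 reads to 242 and 258. Distances are Euclidean on the log2 scale over 4 libraries and are given as a description.

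The neighbours of the cytokine genes on the chromosome were read from the same test. Within 100000 bp of the genes, 34 genes of the table were found, of which 1 was called lower and 0 higher. They include Osm, itself a member, as a neighbour of Lif. Over all genes 6.22% were called higher and 6.03% lower. At an unadjusted p under 0.05 limma gave 1 higher and 6 lower, and with voom weights 0 and 2. The share of all genes at an unadjusted p under 0.05 was not counted, so the unadjusted counts have no background. With voom weights 705 of all genes were called higher and 699 lower. The called neighbour was Sgf29, a subunit of a chromatin-modifying complex, 54368 bp from Il27, with 185 and 151 reads against 96 and 94 (log2 fold change -0.77, SE 0.15, limma adjusted p = 0.0170). That call ended without Ctrl MO replicate 1 (-0.63, adjusted p = 0.0780), without Reg1-MOs replicate 1 (-0.73, adjusted p = 0.104), without Reg1-MOs replicate 2 (-0.82, adjusted p = 0.0585) and without a variance trend (adjusted p = 0.0631), whereas without Ctrl MO replicate 2 the number called lower was 2. Il23a, the member that rose, had 8 neighbours in the table, of which Stat2 was at -0.11 and Pan2 at -0.07.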

How the data were processed

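The authors deposited log2 expression values of 11111 genes in 4 libraries. The build mm10 and the tools HISAT2 1.6.3, cutadapt and FastQC are named in the submitters' processing notes. How reads were counted (tool and strand), how genes were filtered and how values were normalized is not given in the sources. In each deposited column the values are log2 of (reads + 0.5) times a constant, which gave back whole reads within 0.01 for every gene; RPM and RPKM were computed with the library size that constant implies. Reads shared with near-identical copies can have been split or dropped. Groups and replicate numbers follow the sample titles.

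Group differences were tested, two-sided, with limma 3.58.1 (moderated test with a mean-variance trend; R 4.3.3, statmod 1.5.0) on the log2 values as deposited, all genes unfiltered, with group as the only term, Benjamini-Hochberg adjustment and a threshold of 0.05. Positions, lengths and 3′ UTRs come from GENCODE annotation of GRCm38, which is mm10, with 1 transcript per gene for the 3′ UTR. Alternatives were 3 scalings, a filter of 10 mean reads, an offset of 8, voom weights, no variance trend, each library left out and a replicate block. Their use on the neighbouring genes was chosen after seeing the data. With 1 library left out a group holds 1 library, so a call that ended there is not by itself dependence on that library. The block's check gave a correlation of 0.0958 across genes between same-numbered replicates' deviations.

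The members and gene lists were chosen with earlier results of these data known. Named were the members, Zc3h12a, the 2 genes with the smallest p in each list, neighbours that passed and the 3 genes nearest to Il6 and Il23a with at least 50 mean reads. Other named genes were chosen after their values were seen, except the cell type markers, which were listed beforehand.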

Additional observations from a re-analysis of the deposited data

How the results depend on the processing

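Il6 (log2 fold change -0.97 to -0.82 over leave-one-out fits) and Il23a (1.22 to 1.41) passed under all 12 alternatives, with adjusted p up to 0.0411 and 0.0353. Without a variance trend 1 member was called lower instead of 4, Il6; Il12a (-0.47, adjusted p = 0.112), Il27 (-0.54, 0.0580) and Ebi3 (-0.62, 0.0527) then missed the threshold, and 195 genes of the table were called higher and 182 lower. Leaving out 1 library in turn put Il12a at -0.59 to -0.35, Il12b at -0.47 to -0.18 and Osm at -0.0498 to 0.17. Which members were called lower was not the same in each of these fits, in which a group holds 1 library. With the replicate block Il12b passed (-0.32, adjusted p = 1.79e-04), 5 members were called lower, and 1532 genes of the table were called higher and 1891 lower. The genes called higher and lower were then 1 and 5 in the signalling list, 10 and 11 in the transcription list and 6 and 2 in the decay list, and 5 neighbours were called lower; with 2 pairs the numbers were not shown to pair the libraries. The cause of these differences was not tested. Scaling moved the median of all genes by at most 0.0229. Low depth limits Il23a and Osm, with 123 to 327 and 183 to 232 reads.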
